A study of Mus musculus with 36 samples.

Results

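Transforming growth factor beta (TGF-beta) signalling was followed through 10 genes in the hearts of CUG960 mice, a model of the heart disease of myotonic dystrophy type 1. The genes were taken by symbol from the 55291 gene symbols of the expression tables, as a list made with earlier results of these data known. They are the ligands Tgfb1, Tgfb2 and Tgfb3, the receptors Tgfbr1, Tgfbr2 and Tgfbr3, the latent TGF-beta binding proteins Ltbp1 and Ltbp2, and the matrix proteins Postn and Thbs4. All 10 were found in the 36 libraries, and all 10 were among the 19231 genes that had enough counts to be tested. On mm10, in the GENCODE M21 annotation, all 10 are protein-coding genes. Tgfbr3 lies on chromosome 5 from 107106570 to 107289629 on the minus strand, Tgfbr2 on chromosome 9 from 116084293 to 116175360 on the minus strand, Tgfb1 on chromosome 7 from 25687002 to 25705077 on the plus strand, and Tgfb3 on chromosome 12 from 86056745 to 86079041 on the minus strand. Left ventricles and atria were taken for RNA-Seq from mice aged 21 weeks, with 3 mice in each of 6 cohorts, and the study lists the same animals for both chambers. Every mouse, controls included, carried the genotype TREDT960I (Hom)/MHCrtTA (Hem). The TREDT960I transgene holds a long run of interrupted CTG repeats behind a doxycycline (dox) responsive promoter, and the transactivator rtTA is driven by the cardiomyocyte-specific alpha-myosin heavy chain promoter, so the expanded CUG (CUGexp) RNA is made in cardiomyocytes while dox is given. The –dox cohort was never given dox. The +dox cohort was given dox from postnatal day 1 to collection. The +/–dox cohort was given dox from the same day until 9 weeks of age and normal chow for the following 12 weeks. In the remaining 3 cohorts, named MBNL1, MBNL2 and MBNL1+MBNL2 after what they were given, dox was not withdrawn and AAV9 vectors for tagged human MBNL proteins were injected into the tail vein at 9 weeks behind the human TNNT2 promoter, which is active in cardiomyocytes. The MBNL proteins are splicing regulators that CUGexp RNA binds. No library of a cohort with a control vector was among the samples, so an effect of the vector itself cannot be told apart from that of MBNL, and no mice without the transgenes were among them, so an effect of dox cannot be told apart from that of CUGexp RNA.

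The TGF-beta ligands are secreted in a latent form, held by their own propeptide and tethered to the extracellular matrix by latent TGF-beta binding proteins such as Ltbp1. Integrins, proteases and thrombospondins can release the ligand. The free ligand binds Tgfbr2, which recruits and phosphorylates Tgfbr1, and the complex phosphorylates the transcription factors Smad2 and Smad3. Tgfbr3 (betaglycan) is a co-receptor with a large extracellular domain that presents the ligands, Tgfb2 in particular, to Tgfbr2. Ltbp2 belongs to the family of latent TGF-beta binding proteins but does not bind latent TGF-beta, and takes part in elastic and microfibril assembly. Postn (periostin) is a matricellular protein that activated fibroblasts make in response to TGF-beta, and Thbs4 is a thrombospondin of tendon and of the stressed heart. In the heart the pathway is best known for turning fibroblasts into matrix-producing myofibroblasts.

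The totals of the expected counts ran from 55031987 to 97091184 per library. The library names fall in 2 sets by their leading digits. Set B held 16 libraries, all 6 of MBNL1+MBNL2 mice and replicate 3 of each other group, and the remaining 20 libraries formed set A. The ventricular library of MBNL1 replicate 1 listed 16885 genes above 0 at a total of 76336701, whereas replicates 2 and 3 of that group listed 22581 and 22979. It was also the lowest of its group in TPM for 9 of the 10 genes. In comparisons of that group 0 of the 10 genes were called with it and 0 without it, so there was no call to lose. Mouse Mbnl1 ran from 56.4 to 68.1 TPM (a level scaled by transcript length and library size) in the ventricle of MBNL1 mice and from 44.9 to 54.7 TPM in +dox mice, and mouse Mbnl2 ran from 126.9 to 173.8 TPM in MBNL2 mice and from 93.4 to 108.0 TPM in +dox mice. Reads of the human cDNAs that aligned to the mouse genes cannot be told apart from mouse transcripts there. The ventricular markers Myl2, Myl3 and Irx4 and the atrial markers Myl7, Sln and Nppa were each called higher in the labelled chamber of –dox mice, and the 7 fibroblast markers summed to between 1198 and 2102 TPM in the ventricle and between 3018 and 4865 TPM in the atria.

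By level, Postn led the 10 genes in the ventricle, with a median of 24.6 TPM over 18 libraries and a range from 15.1 to 57.9 TPM. Tgfbr2 and Ltbp1 followed, at medians of 17.9 and 14.9 TPM, and Ltbp2 was the lowest at 1.47 TPM. The range of Postn overlapped that of Tgfbr2, from 13.8 to 23.1 TPM. In +/–dox mice the ventricular mean of Postn, 16.4 TPM, was below those of Tgfbr2 (17.6 TPM) and Ltbp1 (16.5 TPM). In the atria, Tgfbr2 had the highest median, at 34.8 TPM with a range from 28.6 to 41.1 TPM, ahead of Postn at 32.0 TPM and a range from 20.8 to 65.0 TPM, so these 2 genes did not differ beyond their spread. Thbs4 was the lowest in the atria at 0.650 TPM. Of the summed ligand TPM, Tgfb1 made up a median of 44.2%, Tgfb3 36.5% and Tgfb2 19.6% in the ventricle, with ranges from 34.3 to 53.1%, from 30.7 to 41.4% and from 16.1 to 26.1%. That order did not hold in the ventricle of +dox mice. In –dox mice the ventricular ranges of Tgfb1, 37.6 to 51.7%, and of Tgfb3, 32.2 to 41.4%, overlapped. In +dox mice Tgfb3 led at a mean of 40.3% (39.6 to 40.9%), and Tgfb1 was at 36.05% (34.3 to 38.75%). In the atria Tgfb3 led as well, with medians of 51.7% for Tgfb3, 32.6% for Tgfb1 and 15.4% for Tgfb2. The lowest Tgfb3 share in an atrial library, 45.5%, was above the highest in a ventricular library. Of the summed receptor TPM, Tgfbr2 made up the largest median share in both chambers, 45.3% in the ventricle and 50.0% in the atria. Tgfbr3 followed at 33.0 and 34.3% and Tgfbr1 at 20.6 and 14.4%.

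**Figure D1:**
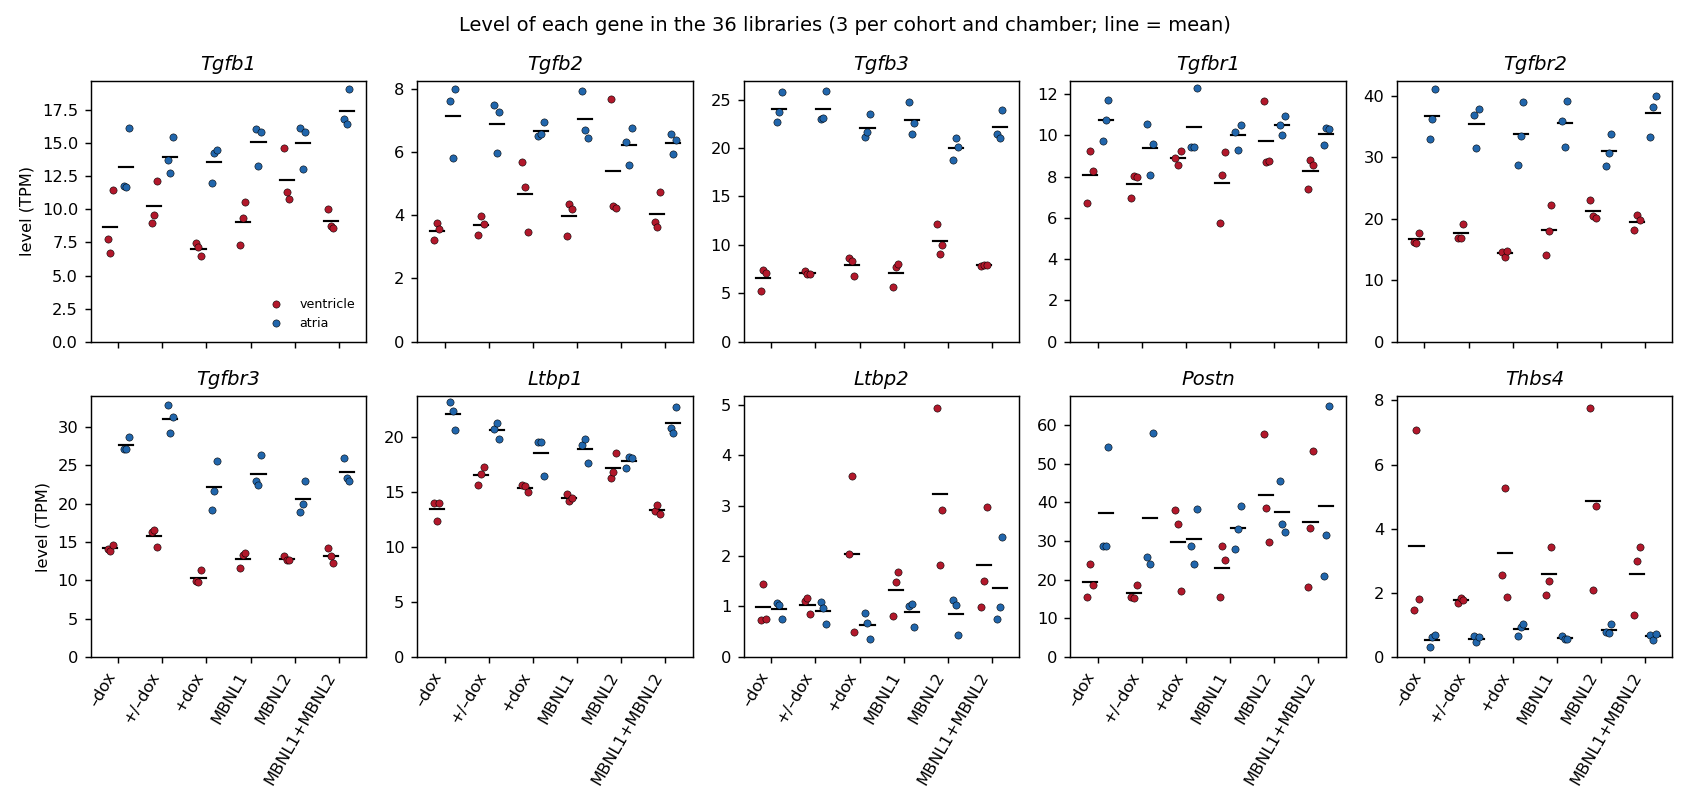
Level in TPM (vertical axis, from 0) of each of the 10 genes in every library, by cohort (horizontal axis), with the ventricle in red, the atria in blue and a line at the mean of 3 mice. Tgfb3, Tgfbr2 and Tgfbr3 had separate TPM ranges in the 2 chambers, and Postn, Ltbp2 and Thbs4 spread widely among the mice of a group. In counts scaled for library size alone (CPM), Tgfbr3 overlapped over all cohorts, at 52.6 to 89.7 in the ventricle and 72.0 to 121.8 in the atria.

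The first question was whether CUGexp RNA changes the pathway and whether stopping it or adding MBNL changes it back. A gene was called where the quasi-likelihood test of edgeR gave an adjusted p below 0.05 (Benjamini-Hochberg method, over all 19231 genes) and the change reached 1.5-fold. In the ventricle, 0 of the 10 genes were called between –dox and +dox mice (7.6% of all tested genes were), and 4 had an unadjusted p below 0.05. Between +/–dox and +dox mice 1 was called, Tgfbr3, against 6.6% of all genes. Against +dox mice, 0 were called in MBNL1 mice (background 2.66%) and 0 in MBNL1+MBNL2 mice (background 2.65%), with 4 at an unadjusted p below 0.05 in each, and 1 was called in MBNL2 mice, Tgfb1 (background 1.52%). In the atria, 0 were called against +dox mice in –dox (background 5.23%), +/–dox (3.99%), MBNL1 (0.13%), MBNL2 (0.0052%) and MBNL1+MBNL2 mice (0.26%), where 2, 1, 0, 0 and 1 of the genes had an unadjusted p below 0.05. DESeq2, run as a second tool, called the same number in each of these 10 comparisons. With 10 genes, counts of 0 or 1 beside these shares are no result about the list. The shares are for called genes. The share of all genes at an unadjusted p below 0.05 was not counted, so the counts by that rule, here and below, are no result about the list either. At an adjusted p below 0.05 with no minimum fold, 2 of the 10 genes rose in the ventricle of –dox mice, 3 in that of +/–dox mice and 2 in that of each MBNL cohort, and 0 fell. The share of all genes that rose by this rule was 9.64, 10.6, 4, 3.12 and 3.17% in the same order. The genes that passed were the receptors Tgfbr2 and Tgfbr3 and the ligand Tgfb1. The 3 libraries of a cohort lay apart from the 3 of +dox mice for 2, 4, 3, 3 and 5 of the 10 genes in CPM, and for 33.6, 38, 23.2, 27.8 and 22.5% of all genes. The median log2 fold change of the 10 genes in the ventricle was -0.13, -0.19, -0.24, 0.28 and -0.13 in the same order, and that of all genes was between -0.04 and 0.01. All of these comparisons share the +dox libraries.

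**Figure D2:**
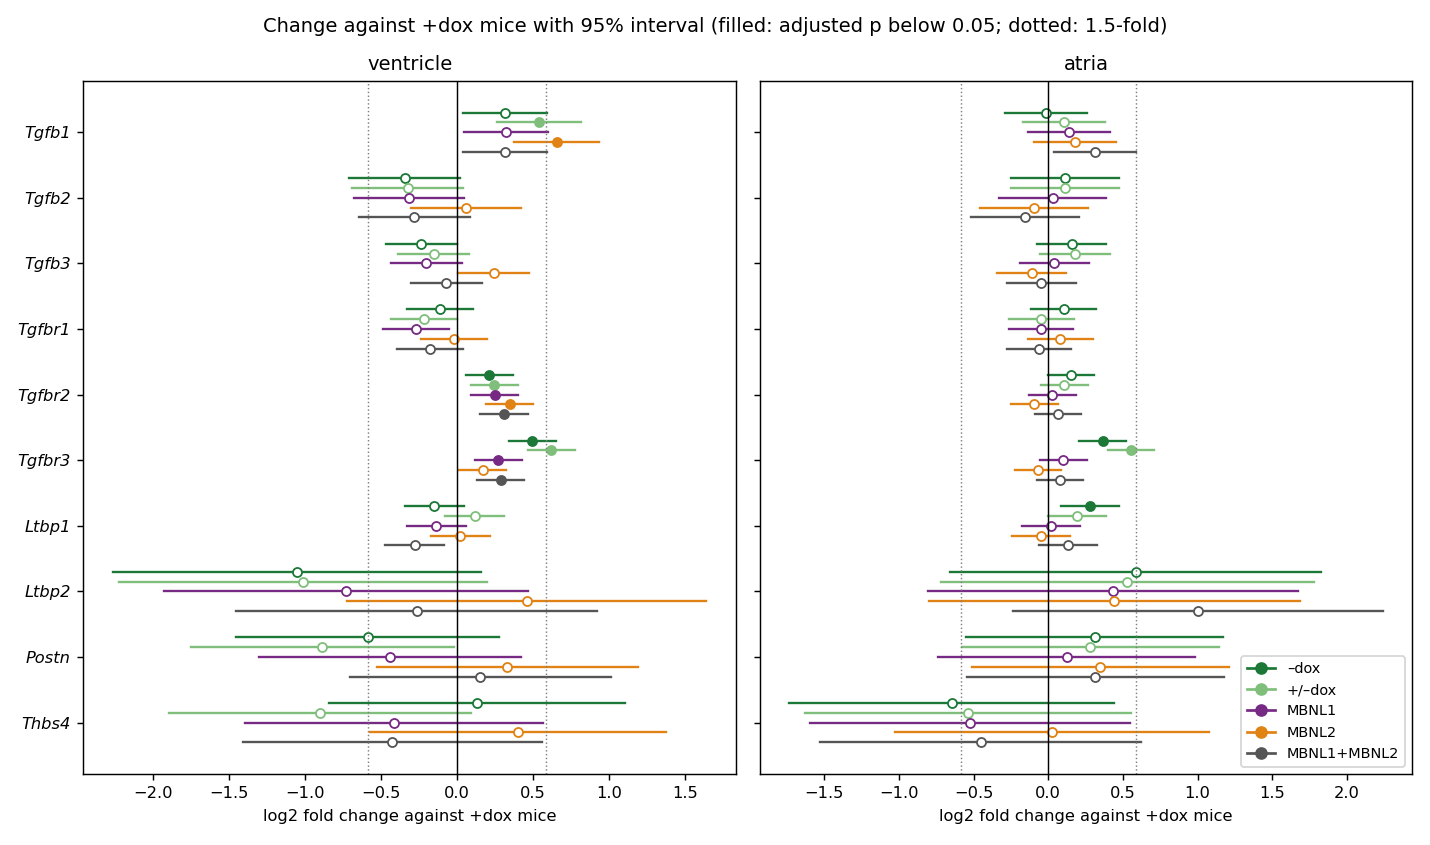
Log2 fold change of each gene against +dox mice (horizontal axis) with its 95% interval, in the ventricle and the atria, by cohort (colour). Filled points had an adjusted p below 0.05 and dotted lines mark a 1.5-fold change. Tgfbr2 lay between 0.21 and 0.34 in the 5 ventricular comparisons, Tgfbr3 rose in –dox and +/–dox mice in both chambers, and the intervals of Ltbp2, Postn and Thbs4 were the widest.

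Tgfbr3 was lowest where CUGexp RNA was on and higher where it was off, in both chambers. In TMM-normalized CPM (counts scaled for library size, not for length), the ventricle of +dox mice held 52.6, 54.2 and 55.6 CPM of Tgfbr3. The –dox mice held 78.1, 77.4 and 73.2 CPM and the +/–dox mice 87.9, 89.7 and 71.4 CPM. Every library without CUGexp RNA was above every +dox library. The log2 fold change against +dox mice was 0.49 in –dox mice (SE 0.08, edgeR adjusted p = 1.73e-05) and 0.62 in +/–dox mice (SE 0.08, edgeR adjusted p = 7.01e-07). The second is a 1.53-fold rise and passed the call, and the first missed the 1.5-fold minimum. The call in +/–dox mice rests on the minimum fold: the log2 fold change was 0.57 without +/–dox replicate 1 and 0.56 without +/–dox replicate 2, just under 1.5-fold. Its adjusted p was at most 0.00301 over 16 other settings. Such ranges over other settings include fits by DESeq2 and limma as well as edgeR. Among the 16 settings is the same fit with no fold minimum, which repeats the adjusted p and cannot lose a call. Within the library sets the log2 difference between +/–dox and +dox mice was 0.73 in set A and 0.36 in set B, and that between –dox and +dox mice was 0.54 and 0.40. The summed fibroblast markers were 1575 to 1742 TPM in +/–dox mice and 1198 to 1354 TPM in +dox mice and 1204 to 1371 TPM in –dox mice. The summed endothelial markers were 172 to 188 TPM in +dox mice, 212 to 270 TPM in –dox mice and 218 to 238 TPM in +/–dox mice. The part of either list in the result was not tested. In this bulk RNA, fewer cells of a type and less RNA per cell cannot be told apart.

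In the atria, the +dox mice held 73.2, 78.7 and 86.1 CPM of Tgfbr3, the –dox mice 103.6, 103.4 and 99.2 CPM and the +/–dox mice 121.8, 116.4 and 111.2 CPM. The 3 cohorts did not overlap, with +/–dox mice the highest. The log2 fold change against +dox mice was 0.36 in –dox mice (SE 0.08, edgeR adjusted p = 0.000973) and 0.55 in +/–dox mice (SE 0.08, edgeR adjusted p = 5.55e-06), both below 1.5-fold. The second passed 1.5-fold without +dox replicate 3, at 0.62, and without +/–dox replicate 3, at 0.59. Between –dox and +/–dox mice the log2 difference was -0.19 in the atria (95% interval -0.35 to -0.04, edgeR adjusted p = 0.868) and -0.12 in the ventricle (95% interval -0.28 to 0.03, edgeR adjusted p = 0.717). In this comparison 0 of the 10 genes were called in the ventricle, where 2 had an unadjusted p below 0.05 and the background was 0.0312%. In the atria 0 were called as well, where 1 had an unadjusted p below 0.05 and the background was 0.0104%, and DESeq2 also called 0 in each chamber. The change in –dox mice differed between the chambers by 0.13 (95% interval -0.09 to 0.35) and that in +/–dox mice by 0.06 (95% interval -0.16 to 0.28), with 0 of the 10 genes called in either test of the difference by edgeR or DESeq2 (background 0.764 and 0.489%, 2 genes at an unadjusted p below 0.05 in each). With the 2 chambers paired by replicate number, 0 of the 10 genes were called either, where 1.75 and 1.56% of all genes were. In these fits 3 and 2 of the 10 had an unadjusted p below 0.05.

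**Figure D3:**
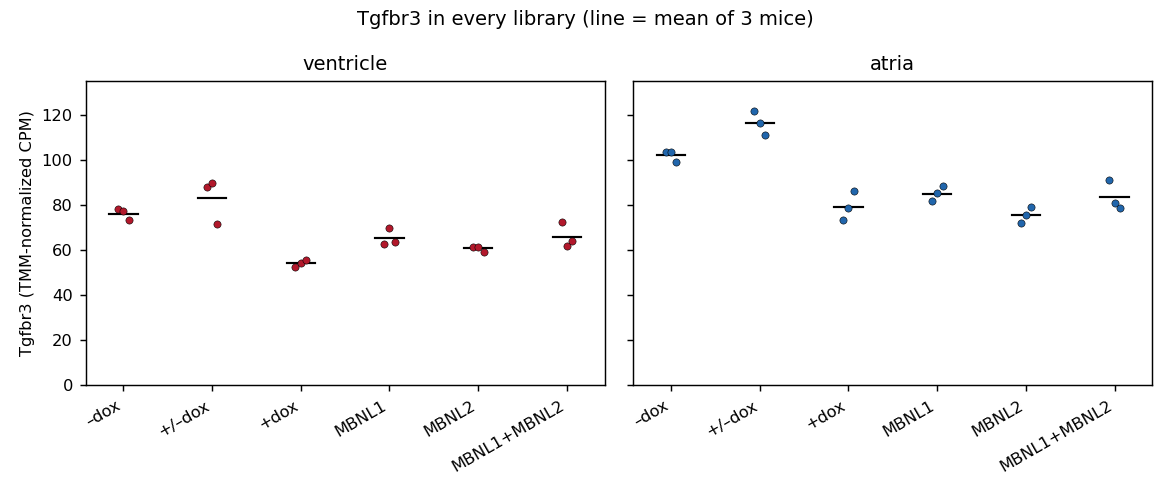
Tgfbr3 in TMM-normalized CPM (vertical axis, from 0) in every library of the ventricle (left) and the atria (right), by cohort, with a line at the mean of 3 mice. The 3 +dox libraries of the ventricle, at 52.6 to 55.6 CPM, lie below all other ventricular libraries, and the atrial MBNL libraries, at 72.0 to 91.0 CPM, lie below all 3 +/–dox libraries.

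The MBNL cohorts lay between +dox and +/–dox mice for Tgfbr3 in the ventricle and near +dox mice in the atria. The ventricles of MBNL1 mice held 62.6, 69.8 and 63.5 CPM, those of MBNL2 mice 61.4, 61.6 and 59.3 CPM and those of MBNL1+MBNL2 mice 72.4, 61.6 and 63.9 CPM. All 9 of these libraries were above the 3 of +dox mice, and 1 of them, MBNL1+MBNL2 replicate 1, was above the lowest of +/–dox mice. Against +dox mice the log2 fold change was 0.27 in MBNL1 mice (SE 0.08, edgeR adjusted p = 0.0225), 0.17 in MBNL2 mice (95% interval 0.01 to 0.32, edgeR adjusted p = 0.184) and 0.29 in MBNL1+MBNL2 mice (SE 0.08, edgeR adjusted p = 0.0162). Over 16 other settings the adjusted p ran up to 0.111 in MBNL1 mice and up to 0.169 in MBNL1+MBNL2 mice. Against +/–dox mice, Tgfbr3 was lower by 0.35, 0.45 and 0.33 on the log2 scale in the same order, with edgeR adjusted p = 0.0116, 0.000421 and 0.0175. None of the 3 reached 1.5-fold, and the adjusted p ran up to 0.188, 0.0452 and 0.228 over the other settings. Within set A the log2 difference from +/–dox mice was -0.42 for MBNL1 and -0.53 for MBNL2 mice, and within set B, with 1 +/–dox library, it was -0.17, -0.27 and -0.12 for the 3 MBNL cohorts.

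In the atria, Tgfbr3 was at 81.7, 85.2 and 88.4 CPM in MBNL1 mice, 72.0, 75.6 and 79.3 CPM in MBNL2 mice and 91.0, 81.0 and 78.8 CPM in MBNL1+MBNL2 mice. These ranges overlap that of +dox mice, and every value is below the 3 of +/–dox mice. Against +dox mice the log2 fold change was 0.10 (95% interval -0.05 to 0.26), -0.07 (-0.22 to 0.09) and 0.08 (-0.08 to 0.23), with edgeR adjusted p = 0.849, 1 and 0.831. Against +/–dox mice it fell by 0.45, 0.62 and 0.48 on the log2 scale, with edgeR adjusted p = 0.000392, 1.49e-06 and 0.00014. The fall in MBNL2 mice, 1.54-fold, was called, the only one of the 10 genes in that comparison (background 3.24%), and was called whichever of the 6 libraries was left out. On log2(TPM + 1) in limma it was -0.57, under 1.5-fold. Within the library sets it was -0.69 in set A and -0.49 in set B. Against +/–dox mice 0 of the 10 genes were called in the atria of MBNL1 mice (background 1.21%) and of MBNL1+MBNL2 mice (background 1.71%), by edgeR or DESeq2, and 1 had an unadjusted p below 0.05 in each. The change between MBNL and +dox mice was larger in the ventricle than in the atria by 0.17 for MBNL1, 0.24 for MBNL2 and 0.21 for MBNL1+MBNL2, with 95% intervals from -0.05 to 0.39, from 0.02 to 0.45 and from -0.01 to 0.43 and edgeR adjusted p = 0.706, 0.413 and 0.799. Those 3 tests of the difference between chambers were added after the values were seen, and called 0 of the 10 genes by edgeR or DESeq2 (background 0.0312, 0.0364 and 0.0728%, with 0, 4 and 2 at an unadjusted p below 0.05). With the chambers paired by replicate number 0 were called as well (background 0, 0.317 and 0.168%, with 0, 3 and 3 at an unadjusted p below 0.05).

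Tgfbr2, the ligand-binding receptor, was lowest in the ventricle of +dox mice and slightly higher in every other cohort. The +dox mice held 65.2, 64.1 and 64.0 CPM in the ventricle. The –dox mice held 74.6, 75.0 and 73.9 CPM, the +/–dox mice 73.4, 76.8 and 78.6 CPM, the MBNL1 mice 65.9, 77.7 and 85.6 CPM, the MBNL2 mice 89.7, 80.5 and 75.4 CPM and the MBNL1+MBNL2 mice 74.7, 77.4 and 87.1 CPM. In CPM all 15 of these libraries were above the 3 of +dox mice. The lowest of them, MBNL1 replicate 1, was only narrowly above and is the library with 16885 genes above 0. In TPM the MBNL1 libraries, from 14.09 to 22.3, overlapped the +dox libraries, from 13.76 to 14.75. The log2 fold change against +dox mice was 0.21 in –dox mice, 0.24 in +/–dox mice, 0.25 in MBNL1 mice, 0.34 in MBNL2 mice and 0.31 in MBNL1+MBNL2 mice, each with an SE of 0.08. The edgeR adjusted p was 0.0488, 0.0207, 0.0393, 0.0064 and 0.00976, and the adjusted p over the other settings ran up to 0.302, 0.123, 0.222, 0.0669 and 0.0905. None of the 5 rises reached 1.5-fold. The summed fibroblast markers ran from 1198 to 1354 TPM in +dox mice and from 1429 to 2102 TPM in the MBNL cohorts of the ventricle, and their part in the result was not tested. In the atria the log2 fold changes of Tgfbr2 ran from -0.09 to 0.15 with edgeR adjusted p from 0.18 to 1. The change in MBNL2 mice was larger in the ventricle by 0.44 (95% interval 0.22 to 0.66, edgeR adjusted p = 0.134).

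Tgfbr1, the signalling receptor that Tgfbr2 phosphorylates, passed no test between cohorts. In the ventricle it was at 41.5, 41.7 and 39.8 CPM in +dox mice, 33.1, 38.2 and 34.6 CPM in +/–dox mice and 33.4, 45.1 and 35.2 CPM in –dox mice. The +/–dox libraries were all below the +dox libraries, but those of –dox mice overlapped them. The log2 differences from +dox mice were -0.22 (95% interval -0.43 to 0.00, edgeR adjusted p = 0.152) and -0.11 (-0.33 to 0.10, edgeR adjusted p = 0.496). In MBNL1 mice the log2 difference was -0.27 (-0.49 to -0.05, edgeR adjusted p = 0.104). In the atria all 18 libraries were between 28.7 and 35.6 CPM.

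Among the ligands, Tgfb1 was lowest in the ventricle of +dox mice and highest in that of MBNL2 mice. The +dox mice held 13.1, 13.1 and 10.6 CPM, the MBNL2 mice 22.8, 18.3 and 16.9 CPM, and the ranges did not overlap. The rise was 0.65 on the log2 scale (SE 0.14, 1.57-fold, edgeR adjusted p = 0.00393) and was called. It was 0.52 without MBNL2 replicate 1 and 0.56 without +dox replicate 3, below the 1.5-fold minimum, and the adjusted p ran from 0.000177 to 0.0487 over 16 other settings. Within set A the log2 difference was 0.65 and within set B 0.67. The summed fibroblast markers ran from 1655 to 2102 TPM in MBNL2 mice, above the +dox range, and the summed macrophage markers ran from 136 to 153 TPM against 89.0 to 141 TPM. The part of either in the rise was not tested. The +/–dox mice held 16.1, 17.3 and 20.2 CPM, also above all +dox libraries, a log2 fold change of 0.54 (SE 0.14, edgeR adjusted p = 0.00425) that missed 1.5-fold. It passed 1.5-fold without +dox replicate 1 or 2, at 0.59 for each, or without +/–dox replicate 1, at 0.61. The difference was 0.35 within set A and 0.93 within set B. The –dox mice held 14.3, 12.4 and 19.2 CPM and overlapped +dox mice, with a log2 difference of 0.31 (95% interval 0.04 to 0.59, edgeR adjusted p = 0.101). In MBNL1 and MBNL1+MBNL2 mice the log2 difference from +dox mice was 0.32 in each, with edgeR adjusted p = 0.134 and 0.161. In the atria, Tgfb1 lay between 14.8 and 21.8 CPM in all 18 libraries. The log2 differences from +dox mice there ran from -0.01 to 0.32, and the last, in MBNL1+MBNL2 mice, had a 95% interval from 0.04 to 0.59 and an edgeR adjusted p of 0.406. The change in Tgfb1 was larger in the ventricle than in the atria by 0.47 for MBNL2 mice (95% interval 0.09 to 0.86, edgeR adjusted p = 0.336) and by 0.44 for +/–dox mice (0.05 to 0.83, edgeR adjusted p = 0.319).

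Tgfb2 and Tgfb3 showed no called change between cohorts. Tgfb2, the ligand that depends most on Tgfbr3, was at 24.3, 21.2 and 13.3 CPM in the ventricle of +dox mice, a wider spread than in –dox mice at 14.5, 17.1 and 14.7 CPM or +/–dox mice at 15.03, 16.7 and 15.2 CPM. The lowest +dox library was below all of these, so the groups overlapped. The log2 differences from +dox mice were -0.35 (95% interval -0.71 to 0.02, edgeR adjusted p = 0.178) and -0.33 (-0.69 to 0.04, edgeR adjusted p = 0.204). In MBNL2 mice replicate 1 stood at 28.6 CPM and replicates 2 and 3 at 16.3 and 16.4 CPM. Tgfb3 was at 24.6, 24.9 and 17.9 CPM in the ventricle of +dox mice and 30.7, 23.7 and 25.2 CPM in that of MBNL2 mice. The latter was above +/–dox mice at 21.2, 20.6 and 18.8 CPM by 0.39 on the log2 scale (SE 0.12, edgeR adjusted p = 0.0392), below 1.5-fold, with an adjusted p up to 0.293 over the other settings. This comparison of MBNL2 with +/–dox mice in the ventricle called 0 of the 10 genes (background 1.57%), with 6 at an unadjusted p below 0.05, while DESeq2 called 1, Postn. In the atria Tgfb3 ran from 37.7 to 49.8 CPM, and its MBNL2 libraries, at 38.4, 43.0 and 37.7 CPM, were all below the +/–dox libraries at 46.0, 49.7 and 49.8 CPM (log2 difference -0.29, 95% interval -0.52 to -0.06, edgeR adjusted p = 0.0992). Tgfb3 overlaps Ttll5 on the opposite strand, and the strand setting of the counting was not stated, so reads of the 2 genes may be mixed there.

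Ltbp1, which anchors latent TGF-beta in the matrix, showed no called change between cohorts. In the ventricle it was at 77.1, 81.7 and 68.4 CPM in +dox mice, 72.7, 64.9 and 66.9 CPM in –dox mice, 79.2, 84.4 and 82.4 CPM in +/–dox mice and 63.8, 60.2 and 63.0 CPM in MBNL1+MBNL2 mice. The MBNL1+MBNL2 libraries lay below all of the +dox and +/–dox libraries. They were lower than +/–dox mice by 0.40 on the log2 scale (SE 0.10, edgeR adjusted p = 0.0251, up to 0.136 over the other settings) and than +dox mice by 0.28 (95% interval of the log2 difference -0.48 to -0.09, edgeR adjusted p = 0.0638). All 3 MBNL1+MBNL2 libraries are of set B, and within set B, with 1 library in each other cohort, the log2 difference was -0.40 from +/–dox and -0.13 from +dox mice. Here 0 of the 10 genes were called against +/–dox mice in MBNL1 mice (background 0.868%) and in MBNL1+MBNL2 mice (background 0.53%) by edgeR or DESeq2, where 2 and 3 had an unadjusted p below 0.05. In the atria Ltbp1 was at 81.8, 79.1 and 67.0 CPM in –dox mice and 69.1, 66.5 and 52.3 CPM in +dox mice, which overlap, and the log2 fold change was 0.28 (SE 0.10, edgeR adjusted p = 0.0436, up to 0.290 over the other settings). The change in –dox mice differed between ventricle and atria by -0.43 (95% interval -0.71 to -0.16, edgeR adjusted p = 0.133). With the chambers paired by replicate number the edgeR adjusted p was 0.0298 at the same size, below 1.5-fold.

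Ltbp2, Postn and Thbs4 spread widely between mice of the same cohort. The coefficient of variation among the 3 mice of a group, averaged over the 6 cohorts of the ventricle, was 47.5% for Ltbp2, 31.2% for Postn and 47.6% for Thbs4, where the median over all tested genes was 12.96% and Tgfbr3 had 5.84%. Ltbp2 was at 12.0, 22.3 and 2.64 CPM in the ventricle of +dox mice, an 8.45-fold range. It was at 4.50, 9.06 and 4.20 CPM in –dox mice and 6.62, 6.99 and 4.73 CPM in +/–dox mice, all within the +dox range. The log2 differences were -1.06 (95% interval -2.27 to 0.15, edgeR adjusted p = 0.221) and -1.02 (-2.23 to 0.19, edgeR adjusted p = 0.238). In MBNL2 mice it was at 25.7, 9.95 and 15.2 CPM, above all 3 +/–dox libraries, with a log2 difference of 1.47 (0.25 to 2.69, edgeR adjusted p = 0.167).

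Postn was at 100.1, 94.1 and 42.2 CPM in the ventricle of +dox mice, 43.1, 67.2 and 46.8 CPM in –dox mice and 40.9, 40.8 and 46.3 CPM in +/–dox mice. The first 2 +dox libraries were the higher ones and the third lay within the range of the other cohorts. The log2 difference from +dox mice was -0.59 in –dox mice (95% interval -1.45 to 0.27, edgeR adjusted p = 0.353) and -0.89 in +/–dox mice (-1.76 to -0.02, edgeR adjusted p = 0.141). The MBNL2 mice held 134.5, 93.8 and 69.0 CPM, above all +/–dox libraries, and the log2 difference was 1.22 (0.35 to 2.09, edgeR adjusted p = 0.0969). DESeq2 called this difference and edgeR did not, and the adjusted p ran from 0.0343 to 0.365 over 16 other settings. In MBNL1+MBNL2 mice the libraries ran from 45.9 to 138.7 CPM. In the atria Postn was at 54.2, 53.7 and 94.0 CPM in –dox mice, 47.4, 47.0 and 103.4 CPM in +/–dox mice and 54.5, 43.7 and 64.7 CPM in +dox mice, with replicate 3, the library of set B, highest in each. The log2 differences from +dox mice in the atria ran from 0.12 to 0.35, with 95% intervals that lay between -0.74 and 1.21.

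Thbs4 was at 6.82, 14.9 and 4.68 CPM in the ventricle of +dox mice. In –dox mice replicate 2 stood at 20.1 CPM and replicates 1 and 3 at 4.11 and 4.62 CPM, and the 3 libraries of +/–dox mice were close together at 4.62, 5.03 and 4.48 CPM. The log2 difference from +dox mice was 0.13 in –dox mice (95% interval -0.85 to 1.10, edgeR adjusted p = 0.887) and -0.90 in +/–dox mice (-1.90 to 0.09, edgeR adjusted p = 0.197). The 5 markers of valve and tendon cells summed to between 4.07 and 33.2 TPM over the ventricular libraries, and their part in the spread of Thbs4 was not tested. In the atria Thbs4 was between 0.605 and 1.81 CPM, on 48 to 157 counts per library, and its log2 differences from +dox mice ran from -0.65 to 0.02 with edgeR adjusted p from 0.459 to 1.

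A single ventricular library, MBNL2 replicate 1, had the highest TPM of its group for 9 of the 10 genes, Ltbp1 being the exception, and the highest of all 18 ventricular libraries for 8 of them. The +dox replicate 3 was the lowest of its group for 7 of the 10. Across the 18 ventricular libraries, log2 CPM of Postn followed most closely that of Nupr1 (r = 0.912), Fstl1 (r = 0.907) and Cilp (r = 0.907), and in the atria that of the collagens Col3a1 (r = 0.893), Col6a2 (r = 0.868) and Col5a2 (r = 0.844). In the ventricle Thbs4 followed the collagens Col12a1 (r = 0.889) and Col11a1 (r = 0.831), at medians of only 0.29 and 0.05 TPM, and Inka2 (r = 0.813). There Tgfb2 followed Timp1 (r = 0.905), an inhibitor of matrix metalloproteinases, Rhoa (r = 0.881) and Rab31 (r = 0.877). Tgfb3 followed Fam20c (r = 0.907), Timp1 (r = 0.895) and Pamr1 (r = 0.887). In the atria Timp1 was not among the closest genes of Tgfb2 or Tgfb3, and no collagen was among those of Thbs4. Tgfbr3 followed Fbxl20 (r = 0.942), Gpcpd1 (r = 0.935) and Rbm33 (r = 0.930) in the ventricle and Herpud1 (r = 0.953), Zrsr1 (r = 0.945) and Uggt2 (r = 0.938) in the atria. These genes were picked as the most alike of 19231, the libraries share cohorts and library sets, and the values are descriptions over 18 libraries. After the cohort means were taken out, r with Tgfbr3 was between 0.653 and 0.890 for its ventricular genes and between 0.423 and 0.630 for its atrial genes.

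The chambers were compared in the –dox cohort, where the 6 libraries come from 3 mice and the p-values below treat them as independent unless said to be paired. In –dox mice, 3 of the 10 genes were called between ventricle and atria by edgeR and 2 by DESeq2, where 24.9% of all genes were called by edgeR: Thbs4 was higher in the ventricle, and Tgfb3 and Tgfbr2 were higher in the atria. Thbs4 was at 4.11, 20.1 and 4.62 CPM in the ventricle and 0.605, 1.21 and 1.17 CPM in the atria of –dox mice, a log2 difference of 3.28 (SE 0.54, edgeR adjusted p = 1.41e-05). Its ventricular mean was 4.38 to 9.66 times the atrial mean over the 6 cohorts, and the libraries of the chambers did not overlap in any cohort. Tgfb3 was at 15.7, 22.3 and 19.3 CPM in the ventricle and 46.6, 48.6 and 48.0 CPM in the atria of –dox mice, a log2 difference of -1.32 (SE 0.12, edgeR adjusted p = 5.01e-11). Its atrial mean was 1.50 to 2.501 times the ventricular mean over the cohorts, lowest in MBNL2 mice, without overlap in any of the 6. Tgfbr2 was at 74.6, 75.0 and 73.9 CPM in the ventricle and 106.6, 114.0 and 115.6 CPM in the atria, a log2 difference of -0.59 (SE 0.08, edgeR adjusted p = 1.28e-07). That call lies at the 1.5-fold minimum. With the chambers paired by replicate number the log2 difference was -0.58 (edgeR adjusted p = 1.04e-05), and without ventricular replicate 3, atrial replicate 2 or atrial replicate 3 it was -0.58, -0.58 and -0.57, in each case under 1.5-fold, with an adjusted p up to 0.000111 over 16 other settings. Tgfbr3 had a log2 difference of -0.42 (SE 0.08, edgeR adjusted p = 2.82e-05), did not overlap between the chambers in any cohort and was under 1.5-fold. Tgfb2 was at -0.44 (SE 0.18, edgeR adjusted p = 0.0477, up to 0.155 over the other settings). Tgfbr1 was higher in the ventricle in all 6 cohorts by CPM, by 1.10 to 1.28 times, without a call (log2 difference 0.14 in –dox mice, 95% interval -0.08 to 0.36). Ltbp2 was higher in the ventricle in all 6 cohorts, by 1.50 to 4.77 times, with libraries apart in 3 of them. The scale matters here. The median gene of 5 TPM or more was lower in the ventricle by 0.52 on the log2 TPM scale in –dox mice, and the chamber differences above are on the CPM scale, where the median of all genes was -0.03. Tgfbr1, higher in the ventricle by CPM, had the lower median TPM there over the 18 libraries of each chamber (8.57 against 10.2). The summed fibroblast markers in –dox mice were 1204 to 1371 TPM in the ventricle and 4214 to 4865 TPM in the atria, and the mesothelial markers, from the outer lining of the heart, 2.75 to 2.97 and 60.5 to 105 TPM. Their part in the chamber differences was not tested.

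**Figure D4:**
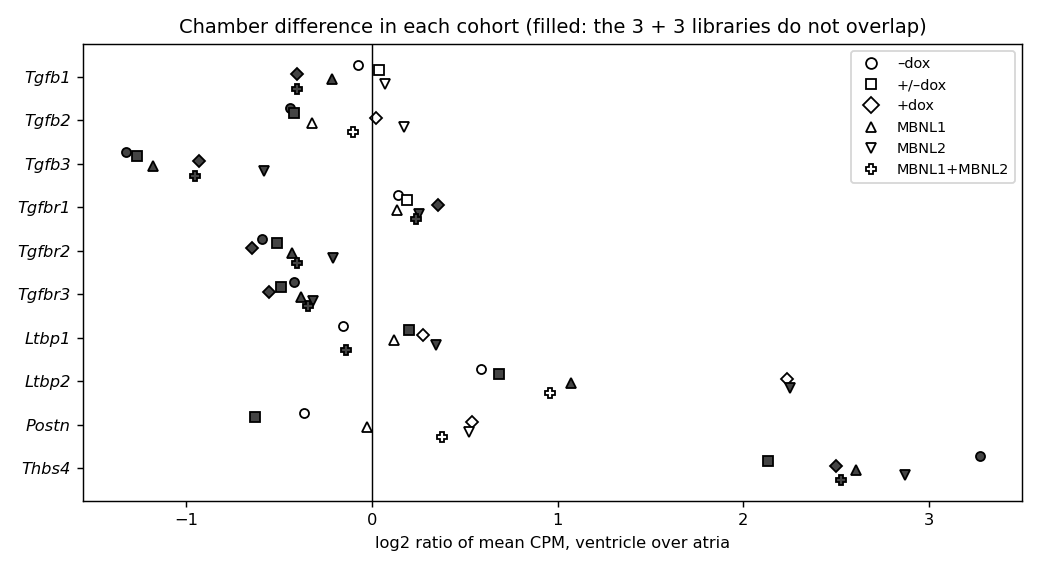
Log2 ratio of the mean TMM-normalized CPM in the ventricle over that in the atria (horizontal axis) for each gene in each of the 6 cohorts (marker shape), filled where the 3 libraries of the ventricle and the 3 of the atria did not overlap. Thbs4 lay to the right in all cohorts, from 2.13 to 3.27, and Tgfb3, Tgfbr2 and Tgfbr3 lay to the left in all cohorts.

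The other genes of the pathway were read from lists of 22 genes of latency and activation, 12 other receptors of the family, 19 intracellular genes, 19 response genes, 17 matricellular genes and 20 other ligands and antagonists, of which 19 of the last were tested. Of the activation genes, 0 rose and 0 fell in the ventricle of –dox mice (7.6% of all genes were called), and 1 rose and 1 fell in the atria (5.23%). Furin, the convertase that cleaves the TGF-beta precursor, fell by 0.85 on the log2 scale in the atria of –dox mice (SE 0.11, edgeR adjusted p = 8.8e-07) and by 0.79 in +/–dox mice (SE 0.11, edgeR adjusted p = 3.8e-06), and both calls held in all 16 other settings. Itgb6, a subunit of an integrin that activates latent TGF-beta, rose by 0.70 and 0.69 there (edgeR adjusted p = 0.00426 and 0.00672) and was lower in all 3 MBNL cohorts than in +/–dox mice, with log2 fold changes of -1.04, -1.17 and -1.06 (edgeR adjusted p = 0.000403, 3.59e-05 and 0.000227). The rise of Itgb6 in –dox mice was not called without –dox replicate 1. Furin was higher in MBNL2 than in +/–dox mice in the atria, by 0.65 (SE 0.10, edgeR adjusted p = 8.99e-05). In the ventricle of MBNL2 mice, where Tgfb1 rose, 3 of the 22 activation genes rose and 0 fell against +dox mice (1.52% of all genes were called): the proteases Mmp14 (0.89) and Mmp2 (0.64) and the binding protein Ltbp4 (0.66), with edgeR adjusted p = 0.0223, 0.0189 and 0.0199. Each of the 3 calls was lost without MBNL2 replicate 1 or without +dox replicate 3, and that of Ltbp4 also without +dox replicate 1 or MBNL2 replicate 3. The co-receptor Eng (endoglin) also rose in that comparison, by 0.61 (edgeR adjusted p = 0.00304), the only call among the 12 other receptors against +dox mice in either chamber, and was lost without the same 2 libraries.

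Of the 19 intracellular genes, 1 rose and 0 fell in the ventricle of –dox mice, beside 7.6% of all genes called, and 0 changed in that of +/–dox mice, beside 6.6%. In the atria 0 changed against +dox mice in any cohort, where between 0.0052 and 5.23% of all genes were called. Smad7, an inhibitory Smad, rose by 0.66 in the ventricle of –dox mice (SE 0.13, edgeR adjusted p = 0.000576), a call lost without +dox replicate 3 or –dox replicate 3. Tgif1, a repressor of Smad targets, rose in the ventricle of MBNL1, MBNL2 and MBNL1+MBNL2 mice by 0.59, 0.74 and 0.65 (edgeR adjusted p = 0.0202, 0.00599 and 0.0104), and each of these calls was lost without at least 1 library. Of the 19 response genes, 1 rose and 1 fell in the ventricle of –dox mice, Smad7 and Tnc, beside 7.6% of all genes called. In the atria 2 rose, beside 5.23%, Ccn2 at 1.34 (SE 0.32, edgeR adjusted p = 0.00424) and Fn1 at 0.82 (SE 0.19, edgeR adjusted p = 0.00308). Tnc (tenascin C) fell by 1.81 in the ventricle of –dox mice and by 1.75 in that of +/–dox mice (edgeR adjusted p = 0.00323 and 0.00416), and both calls were lost without +dox replicate 1. The median log2 fold change of the response genes in –dox mice was -0.12 in the ventricle and 0.31 in the atria, beside 0.01 and 0.03 for all genes.

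Of the 17 matricellular genes, 0 rose and 3 fell in the ventricle of –dox mice, Ccn4, Tnc and Ccn5, beside 7.6% of all genes called in either direction. Ccn4, a secreted matricellular protein, fell by 2.11 in –dox mice (SE 0.25, edgeR adjusted p = 8.21e-07) and by 1.96 in +/–dox mice (SE 0.25, edgeR adjusted p = 2.63e-06), and both calls held in all 16 other settings. Against +dox mice it was also lower in the ventricle of MBNL1 and MBNL1+MBNL2 mice, by 1.04 and 1.17 (edgeR adjusted p = 0.00735 and 0.00248), calls that were lost when only the libraries compared were fitted, and in MBNL2 mice the log2 difference was -0.55 (95% interval -1.03 to -0.07, edgeR adjusted p = 0.154). Of the other ligands, 2 rose and 0 fell in the ventricle of –dox mice, Inha and Chrd, beside 7.6% of all genes called. In the atria 2 rose and 2 fell, beside 5.23%, Chrd and Fst upwards and Bmp5 and Inhbb downwards. Bmp5 fell by 1.25 in the atria of –dox mice (SE 0.16, edgeR adjusted p = 1.22e-06), held in all 16 other settings, and Gdf15 fell by 1.67 in the ventricle of +/–dox mice (SE 0.46, edgeR adjusted p = 0.00878).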

How the data were processed

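RNA-Seq was made from 250 ng of RNA of the left ventricle and atria of 36 samples, as stranded poly(A) libraries read as pairs. The authors aligned reads with STAR 2.7.10b to mm10 and estimated GENCODE M25 genes with RSEM 1.3.1. Whether RSEM counted by strand is not given in the sources used here. The deposited expected counts are unnormalized estimates for each gene symbol and were rounded here. The TPM deposited by the authors are RSEM levels scaled by transcript length. Gene positions came from GENCODE M21 on the same assembly, which held 96.4% of the symbols.

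Groups came from the sample labels. The 36 libraries were fitted with 12 group means, TMM normalization and filterByExpr in edgeR 4.0.16 (robust quasi-likelihood test, R 4.3.3), and 19231 genes were kept. A call needed an adjusted p below 0.05 and a 1.5-fold change, the thresholds of the study. Alternatives used DESeq2 1.42.0, limma 3.58.1 on log2(TPM + 1) and log2(TPM + 0.1), other normalization, filters, libraries in the fit, a library set term and a replicate block. Another alternative kept the same fit and dropped the fold minimum, so no called gene could fail it. The pipeline was tested on simulated counts. Totals were 55031987 to 97091184 per library. Counting error was not set against the spread between mice in each group. It matters most for atrial Thbs4, on 48 to 157 counts, and for tight groups. One such group is ventricular Tgfbr2 of +dox mice (SD 0.661 CPM at a mean of 64.4 CPM).

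The members and gene lists were chosen with earlier results of these data known. Genes named beyond the 10 are, for each list, the called genes with the largest changes, at most 3 per direction and chamber, and the 3 genes most correlated with each member. Libraries are labelled as biological replicates. The edgeR p-values rest on the spread between replicates as estimated over all 12 groups of 3 libraries together, not over the compared groups alone. The replicate numbers do not tie a mouse of 1 cohort to another. Between the chambers, samples of the same number had r over genes from 0.123 to 0.243 in –dox mice, and as low as 0.041 in MBNL1 mice. Atrial samples of the same number from MBNL1 and +dox mice, which are different mice, reached 0.29. These values therefore do not show that 2 chamber samples of the same number come from 1 mouse. The study lists the same 3 animals for both chambers of each cohort, without replicate numbers. Values with the chambers paired by replicate number are given beside comparisons of chambers. That pairing is assumed, and the fit was added after seeing the data. Across 36 pairs of replicates, chi-square per gene was 10.3 to 145, so no library was a copy of another. The study lists 3 male mice in the MBNL1+MBNL2 cohort and 2 males and, last, 1 female in each other cohort, without replicate numbers. Sex cannot be told apart from the MBNL1+MBNL2 cohort, nor, if the list follows the replicate numbers, from library set B in the other cohorts.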

Additional observations from a re-analysis of the deposited data

Results flagged for a closer look

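In 3 genes of the pathway lists the change against +dox mice differed between ventricle and atria by the interaction test of edgeR's quasi-likelihood fit with Benjamini-Hochberg adjustment. None of the 10 ligands, binders, receptors and matrix genes was among them. The share of all genes called was 0.764% for –dox mice, 0.489% for +/–dox mice and 0.0312 to 0.0728% for the MBNL cohorts. All 6 lists were searched, so a count of 3 beside these shares is no result about the lists.

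Bmp5, a ligand of the BMP branch, had the largest such difference. In –dox mice the log2 change was 0.22 in the ventricle (95% interval -0.15 to 0.59) and -1.25 in the atria, a difference of 1.47 (SE 0.24, edgeR adjusted p = 0.000995), and the call held whichever of the 12 libraries was left out. The chambers come from the same mice, and with them paired by replicate number the difference was 1.48 (edgeR adjusted p = 0.00291). Ccn4 fell by 2.11 in the ventricle and had a log2 change of -0.65 in the atria (95% interval -1.12 to -0.18), a difference of -1.46 (SE 0.34, edgeR adjusted p = 0.0291), and 9 of 12 leave-one-out fits lost the call, while the paired value was -1.44 (edgeR adjusted p = 0.00391). Furin had a log2 change of -0.14 in the ventricle (95% interval -0.35 to 0.07) and of -0.79 in the atria of +/–dox mice, a difference of 0.65 (SE 0.15, edgeR adjusted p = 0.0343), with the call lost in 9 of 12 leave-one-out fits here too and a paired value of 0.66 (edgeR adjusted p = 0.00376). For –dox mice the difference for Furin was 0.54 (95% interval 0.24 to 0.84, edgeR adjusted p = 0.0674).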

How the results depend on the processing

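The counts of called genes among the 10 were the same with no filter on low counts, with a library set term and with a replicate block. With RLE normalization, or only the libraries compared, they were the same between cohorts, and 2 genes were called between chambers in place of 3. The block by replicate number gave 1 called gene in the ventricle of +/–dox mice, as without it, and changed no other call. With the chambers of –dox mice paired by replicate number, 2 were called, without Tgfbr2, where 27.8% of all genes were called. The 5 differences of cohort changes between chambers, paired the same way, called 0 of the 10. At an adjusted p below 0.05 with no fold minimum, the counts in the ventricle against +dox mice were 2, 3, 2, 2 and 2 (–dox, +/–dox, MBNL1, MBNL2, MBNL1+MBNL2). In the ventricle against +/–dox mice they were 1, 2 and 2 (MBNL cohorts in the same order). In the atria they were 2 (–dox) and 1 (+/–dox) against +dox mice. Against +/–dox mice they were 1 in MBNL1 and 1 in MBNL1+MBNL2 mice there, and between chambers the count was 5. The share of all genes by this rule was counted only for rises in the ventricle against +dox mice. The other counts by it are therefore no result about the list. On log2(TPM + 1), limma called 0 in the ventricle of +/–dox against +dox mice, 2 in that of MBNL2 against +/–dox mice (Postn and Ltbp2), 0 in the atria of MBNL2 against +/–dox mice and 6 between chambers. On log2(TPM + 0.1) it called 1 in the ventricle of MBNL2 against +/–dox mice and 7 between chambers, where the median of all tested genes had moved by -0.32 on the log2(TPM + 1) scale. DESeq2 called 1 in the ventricle of MBNL2 against +/–dox mice (Postn) and 2 between chambers. Leaving out 1 library gave 0 to 2 called genes in the ventricle of +/–dox against +dox mice, 0 to 1 in that of MBNL2 mice, 0 to 1 in the atria of +/–dox mice and 2 to 3 between chambers. With RLE normalization, only the libraries compared, limma, DESeq2 or 1 library left out, the share of all genes called was not counted. Those counts are therefore no result about the list. Of 4140 values of single members over the alternatives, 13 lost a call, 37 gained one and 0 of those called in the main fit changed direction. Changes of direction in values that were not called were not counted. Of 2484 counts over the pathway lists, 354 moved by over 1.5 times. Between CPM and TPM the cohort with the highest mean differed in 7 of 20 gene and chamber pairs. With 3 mice per group, the spread between mice sets the widths of the intervals, from -2.27 to 0.15 for Ltbp2 in the ventricle of –dox mice.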

Other observations

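In the atria, the library of set B (replicate 3) lay on the same side of both libraries of set A in all 5 cohorts that hold both sets for 3 of the 10 genes: below them for Ltbp1 and Ltbp2, and above them for Tgfbr2. Postn of set B was above set A in 4 of the 5 cohorts and below it in the other. In the ventricle no gene of the 10 did so in all 5. The share of all tested genes that lay on the same side in all 5 cohorts was not counted. These counts are therefore no result about the list, and whether they are particular to these genes was not tested. Atrial Ltbp2 of set B was 2.64 CPM in +/–dox mice, beside 4.50 and 4.25 CPM in set A, and 1.69 CPM in MBNL2 mice, beside 4.74 and 4.25 CPM. The labels do not say what the sets are, and the part of the mice's sex in these differences was not tested.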
